A study of Mus musculus with 170 samples.

Results

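The genes studied are 10 that hypoxia-inducible factor (HIF) is known to activate outside glycolysis, followed here in single cells of the embryonic mouse heart. They were Ankrd37, Ndrg1, Ddit4, Ero1l, Higd1a, Kdm3a, Car9, Mxi1, Bhlhe40 and Ndufa4l2, taken by name, and they made up 10 of the 40549 genes in the expression table. The members and the gene lists used below were chosen with earlier results of these data known. Counts among them, set beside the share of all genes, are therefore descriptions and not independent support. All 10 passed the filter for comparison, a TPM above 0 in more than 10 cardiomyocyte-like cells counted over both genotypes together. Cells came from the ventricular part of E9.5 hearts of C57BL/6 mice, were picked by hand with a mouth pipette, and were sequenced by Smart-seq2, which reads full-length polyadenylated transcripts. Control embryos, labelled wild type, were by the study's methods Dgcr8 loxP/loxP and ROSA26 mT/mG/+ and carried no Cre. Conditional knockout (cKO) embryos, labelled Mesp1Cre/+; Dgcr8-/-, had the same floxed and reporter alleles together with Mesp1 Cre/+, so Cre came from the Mesp1 locus, which is active in early mesoderm that gives rise to the heart. Dgcr8 binds RNA and works with the nuclease Drosha to release microRNA precursors, and mT/mG is a membrane-targeted fluorescent reporter that switches colour after Cre acts. The labels named 2 batches, which the study describes as sequencing batches, and no embryo. Each genotype was therefore 1 sample and no test between genotypes was possible.

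HIF is a heterodimer of an oxygen-regulated alpha subunit and the stable beta subunit Arnt. When oxygen is present, prolyl hydroxylases of the Egln family mark the alpha subunit, Vhl binds it and the proteasome degrades it. When oxygen is short the dimer accumulates and binds short DNA motifs with the letters ACGTG or GCGTG, called hypoxia response elements. The embryonic heart develops in low oxygen, and HIF target genes there include the enzymes of glycolysis as well as regulators of mitochondria, protein folding, growth signalling and transcription, to which the 10 members belong. In mitochondria, Higd1a associates with the respiratory chain and Ndufa4l2 is an isoform relative of Ndufa4 that lowers respiration in hypoxia. In the endoplasmic reticulum, Ero1l passes electrons from protein disulfide isomerase to oxygen. Ddit4 restrains the growth kinase complex mTORC, Ndrg1 is a stress-responsive cytoplasmic protein, and Car9 is a carbonic anhydrase on the cell surface that regulates pH. Kdm3a removes methyl groups from histone H3 and uses oxygen to do so, Mxi1 competes with MYC for MAX, Bhlhe40 is a transcriptional repressor, and Ankrd37 is a protein with ankyrin repeats.

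Short stretches of the members' promoters are shown because the motif bound by HIF is the feature expected of its direct targets. RefSeq promoters (GRCm38.p6, 250 bases before to 50 bases after each transcription start) were at hand for 7 members and 11 start sites, with Ero1l listed under its newer symbol Ero1a. Promoters of Ndrg1, Bhlhe40 and Ndufa4l2 were not analysed here. ACGTG on either strand was found in 6 of the 7 members, against 21.8% of the 27025 genes with a promoter in the same reference. ACGTG or GCGTG on either strand was found in all 7, against 46.7% of genes. Counted by start site it was 8 of 11, against 43.8% of promoters. The trait was shared by the other HIF target lists used below, with either motif in 17 of 19 glycolytic and 11 of 11 further targets with a promoter. The longer palindrome CACGTG, which contains ACGTG and is the motif of MYC and Bhlhe40, was found in 0 of the 7 and in 8.09% of genes. A match of letters is a description of the sequence and not evidence that a factor was bound. The stretches below run 5′ to 3′ along the transcript, stop before the start site and carry the motif, or its reverse complement CACGT or CACGC, in capitals.
Ankrd37: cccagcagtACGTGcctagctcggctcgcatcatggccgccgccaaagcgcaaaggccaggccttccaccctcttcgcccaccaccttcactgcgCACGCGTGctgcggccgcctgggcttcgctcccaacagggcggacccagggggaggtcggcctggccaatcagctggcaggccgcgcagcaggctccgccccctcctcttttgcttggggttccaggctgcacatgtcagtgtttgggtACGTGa
Ero1l: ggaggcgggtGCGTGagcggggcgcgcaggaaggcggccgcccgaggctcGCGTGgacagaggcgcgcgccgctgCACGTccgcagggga
Ddit4: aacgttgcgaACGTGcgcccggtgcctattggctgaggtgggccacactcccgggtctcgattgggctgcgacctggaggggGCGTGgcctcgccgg
Higd1a: ggtctagcctGCGTGCGTGgcgttcgcgg
Kdm3a: gggaggctgtGCGTGtcttgtgaga
Car9: atttccgatgCACGTacagcccgtc
Mxi1: tcggcacccgACGTGcactggcggg

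The Ankrd37 stretch (chr8:45999851-46000100 on the minus strand) held 4 motifs, with ACGTG at positions -241 and -6 and a pair of overlapping GCGTG motifs on opposite strands at -155 and -152, where a position is that of the leftmost base as printed and -1 is the last base before the start. The Ero1l stretch (chr14:45318621-45318710 on the minus strand) held 3, with GCGTG at -128 and -88 and ACGTG on the opposite strand at -63. Ddit4 (chr10:59951871-59951967 on the minus strand) had ACGTG at -187 and GCGTG at -115. Higd1a (chr9:121857848-121857876 on the minus strand) had 2 overlapping GCGTG motifs at -70 and -66. Its promoter also held ACGTG on the opposite strand after the start site, at position 44, outside the stretch shown. Kdm3a (chr6:71632930-71632954 on the minus strand) had GCGTG at -27 and Car9 (chr4:43506998-43507022 on the plus strand) had ACGTG on the opposite strand at -18. Mxi1 (chr19:53329337-53329361 on the plus strand) had ACGTG at -66 of the second of its 3 start sites, and at -25 of the third, which is not shown. All 25 to 29 bases of the Higd1a, Kdm3a and Car9 stretches lie in an exon of a GENCODE M21 transcript with an earlier start, as do 17 bases of the Ankrd37 and 8 of the Ero1l stretch, whereas the Ddit4 and Mxi1 stretches lie in none. Ankrd37 with 4 motifs in its promoter, and Ero1l and Higd1a with 3 each, are set against their expression below.

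The expression table covered 143 cells, 74 control and 69 cKO. Clustering on 55 marker genes gave 93 cardiomyocyte-like (CM-like) cells, with all 15 cardiomyocyte markers raised in the cluster, and they comprised 26 control cells (18 in batch 1, 8 in batch 2) and 67 cKO cells (34 and 33). Levels are TPM, a transcript abundance which corrects for transcript length and keeps no record of sequencing depth, so depth was unknown and the number of detected genes per cell was used in its place. The median number was 8477 in batch 1 and 9910 in batch 2 among control CM-like cells, and 9798 and 7786 among cKO CM-like cells, so the genotypes differed in opposite directions in the batches. Over the 15083 genes tested, the median difference between cKO and control was 0.12 in batch 1 and -0.37 in batch 2 on the log2(TPM + 1) scale, and the members' differences should be read against these values. Mitochondrial transcripts took a median of 6.18% of TPM in control and 3.00% in cKO CM-like cells. Dgcr8 had a TPM of 1 or more in 15 of 26 control cells and in 21 of 67 cKO cells of the CM-like class, with a mean log2(TPM + 1) of 2.63 ± 2.87 (SD across cells) and 1.66 ± 2.46. Among CM-like cells, Xist was detected in 63 of 67 from cKO and 0 of 26 from control hearts (which allows up to 11.5%), and the Y-linked Ddx3y in 0 cKO (which allows up to 4.48%) and 18 control cells, so genotype cannot be told apart from embryo sex. Markers of other cell types were low in CM-like cells of both genotypes. The summed TPM of the 13 endothelial markers had a median of 18.2 (range 2.99 to 1380) in control and 51.5 (2.76 to 412) in cKO, against 64808 and 90679 for the cardiomyocyte markers. Sums were 206 and 251 for 14 mesenchymal markers (Lum at 0 in both genotypes, Postn in cKO), 26.6 and 34.8 for 6 epicardial markers and 2.99 and 9.49 for 7 erythroid markers, and the part of any of these in the members' values was not tested.

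All 10 members had a higher mean log2(TPM + 1) in cKO than in control CM-like cells. Of the 26 control cells, 8 had a TPM above 0 for Ndufa4l2, 10 for Ndrg1, 6 for Car9 and 3 for Ddit4. These members therefore passed the filter only because cKO cells were counted too. Differences ranged from 0.53 for Ankrd37 to 2.93 for Ero1l with a median of 1.09, against -0.01 for all genes tested. A gene was called higher when the difference was at least 1, a doubling on this scale, in each batch. By this rule 2 of 10 members, Ero1l and Ndufa4l2, were higher in cKO, against 1.96% of all genes, and 0 of 10 were lower, against 3.94%. On the pooled cells alone, 6 of 10 members differed by at least 1, against 5.47% of all genes. A difference above 0 in both batches was found for 9 of 10, against 23.5% of all genes, and the exception was Mxi1. The members' median difference was 1.41 in batch 1 and 0.66 in batch 2, against 0.12 and -0.37 over all genes tested. In batch 1, 8 members reached 1, and the lowest of them, Ddit4, stood at the 92.7th percentile of all genes. In batch 2, 3 members reached 1, and the lowest of them, Higd1a, stood at the 98.2nd percentile. In batch 2 all 10 members stood above the median of all genes. The range of cKO cells overlapped the range of control cells for each of the 10 members.

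**Figure D1:**
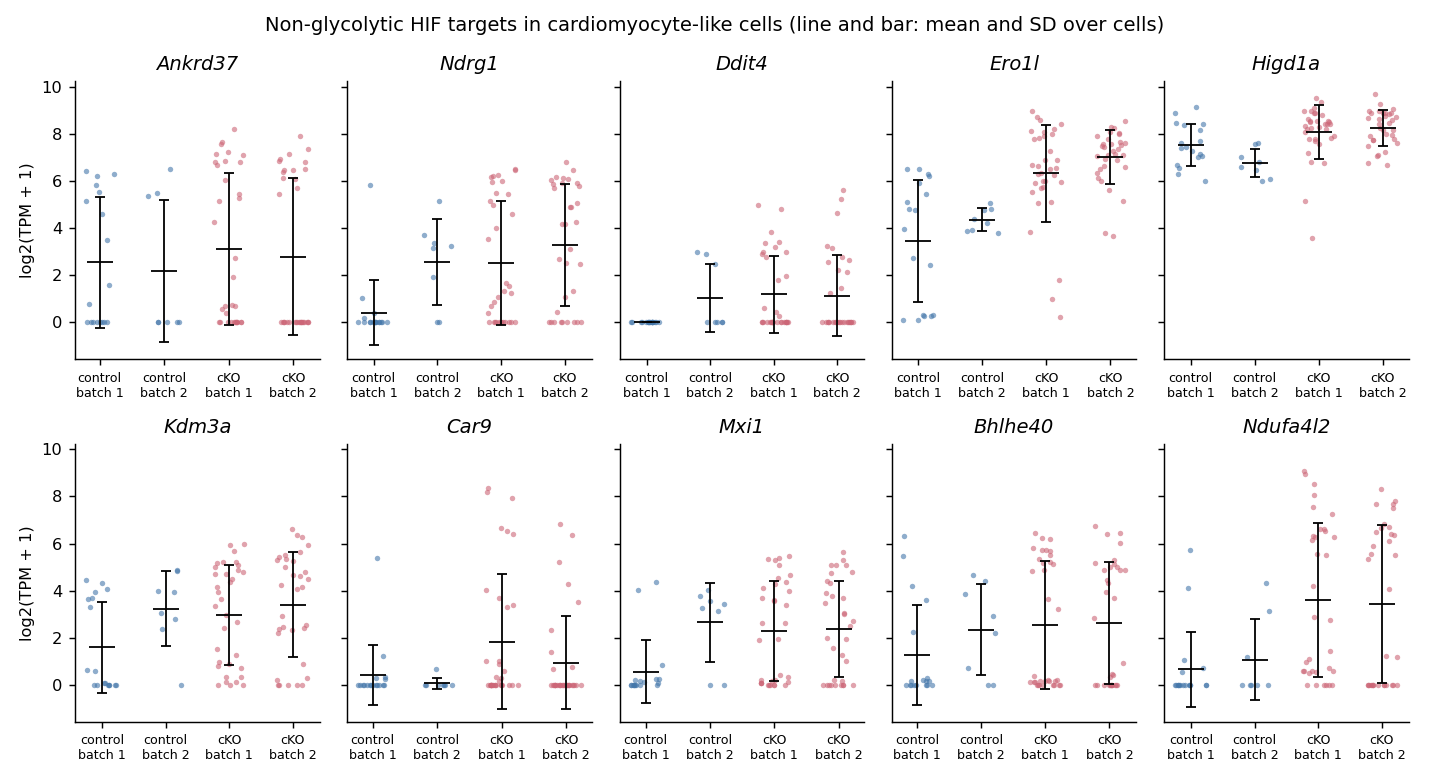
Each point is 1 CM-like cell, split by genotype and sequencing batch, with log2(TPM + 1) on the vertical axis and the mean and SD over cells in black. Ero1l was near 7 in most cKO cells and between 0.10 and 6.51 in control cells, while Ndufa4l2, Bhlhe40 and Ankrd37 had a group of cells at or near 0 and another well above it in cKO.

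Ero1l, the endoplasmic reticulum oxidase, showed the largest pooled difference of mean log2 levels, while Ndufa4l2 was ahead in batch 1. By the ratio of mean TPM, Ndufa4l2 (18.6), Car9 (12.96) and Ddit4 (6.13) were all ahead of Ero1l (5.56). The level of Ero1l in control CM-like cells ran from 0.10 through a median of 4.29 to 6.51, and in cKO cells from 0.24 through 6.93 to 8.95. Most of the cKO cells, 43 of 67 (64.2%, exact 95% interval 51.5 to 75.5%), lay above the highest control cell. The mean was 3.73 ± 2.20 (SD, 26 cells) in control and 6.65 ± 1.70 (67 cells) in cKO, and cKO exceeded control by 2.93 pooled, with 2.87 in batch 1 and 2.64 in batch 2. Its percentile among all genes tested was 99.8 pooled and 99.7 in each batch. Control cells of batch 2 were narrowly spread at 4.35 ± 0.48 (8 cells), whereas in batch 1 they were spread at 3.45 ± 2.59 (18 cells), of which 6 had a TPM under 1. Its close relative Ero1lb was at a mean of 0.52 in control and differed by -0.35. Hspa5, the main chaperone of the same compartment, differed by 0.04, within a range of -1.07 to 1.12 over the folding genes listed below.

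Ndufa4l2, the mitochondrial protein, was detected in 6 of 26 control cells. Levels ran from 0 through a median of 0 to 5.72 in control and from 0 through 2.90 to 9.10 in cKO. The highest control cell was exceeded by 26 of 67 cKO cells (38.8%, interval 27.1 to 51.5%), while 28 of the 67 had a TPM under 1. The mean was 0.80 ± 1.61 in control and 3.53 ± 3.28 in cKO, a difference of 2.73 pooled, 2.94 in batch 1 and 2.35 in batch 2. The ratio of mean TPM, which gives weight to the highest cells, was 18.6. Ndufa4, which encodes the related subunit, was at a mean of 10.97 in control and differed by -0.11. Higd1a, the other mitochondrial member, was the most abundant of the 10 and was detected in every CM-like cell. It ran from 5.98 through 7.20 to 9.13 in control and from 3.56 through 8.40 to 9.70 in cKO, and 4 of the 67 cKO cells lay above the highest control cell. Its mean was 7.29 ± 0.88 in control and 8.15 ± 0.97 in cKO, with a difference of 0.86 pooled that was 0.54 in batch 1 and 1.48 in batch 2. Higd1a was the only member whose batch 2 difference reached 1 while its batch 1 difference did not. Higd2a, its relative, differed by 0.02.

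Ndrg1, Ddit4 and Car9 had a TPM under 1 in most of the 26 control CM-like cells. In batch 2, however, Ndrg1 had a TPM of at least 1 in 6 of 8 control cells, against 23 of 33 cKO cells. Ndrg1 ran from 0 through a median of 0 to 5.82 in control and from 0 through 2.52 to 6.82 in cKO. Its mean was 1.08 ± 1.80 in control and 2.89 ± 2.61 in cKO, and cKO exceeded control by 1.81 pooled, with 2.10 in batch 1 and 0.70 in batch 2. The step between batches came with the control cells, whose mean was 0.41 in batch 1 and 2.57 in batch 2, against 2.52 and 3.27 in cKO cells. Ndrg1 ranked at the 98.9th percentile of all genes pooled and at the 93.0th in batch 2. In the same family Ndrg2 was called higher (2.19, and 2.15 and 1.82 in the batches) and Ndrg3 lower (-2.48, and -1.77 and -3.62).

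Ddit4, the inhibitor of mTORC, was at 0 in all 18 control CM-like cells of batch 1 (which allows a share of up to 16.7%) and was detected in 3 of 8 in batch 2. In control it reached at most 2.98 with a median of 0, and in cKO at most 5.62, again with a median of 0. The mean was 0.32 ± 0.91 in control and 1.16 ± 1.67 in cKO, a difference of 0.83 pooled, 1.19 in batch 1 and 0.08 in batch 2. Car9, the surface carbonic anhydrase, was rare in control, with 2 of 26 cells at a TPM of at least 1 (6 with any TPM above 0) and a highest value of 5.39. In cKO it was detected in 19 of 67 cells and reached 8.37, and the median was 0 in both genotypes. The mean was 0.32 ± 1.07 in control and 1.41 ± 2.48 in cKO, with a difference of 1.09 pooled, 1.43 in batch 1 and 0.87 in batch 2. Mean TPM was 1.68 and 21.7, a ratio of 12.96, and 8 of the 67 cKO cells lay above the highest control cell.

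The members that act on chromatin and transcription had middling levels. Kdm3a, the histone demethylase, ran from 0 through 2.59 to 4.87 in control and from 0 through 3.93 to 6.61 in cKO. Its mean was 2.10 ± 1.96 in control and 3.20 ± 2.17 in cKO, a difference of 1.09 pooled, 1.39 in batch 1 and 0.18 in batch 2. Mxi1, the MYC antagonist, ran from 0 through 0.15 to 4.39 in control and from 0 through 2.53 to 5.65 in cKO. Its difference of 1.12 (1.22 ± 1.72 in control, 2.34 ± 2.07 in cKO) was made of 1.71 in batch 1 and -0.27 in batch 2, so the batches went in opposite directions. In batch 2 the control mean was 2.66 ± 1.66 (8 cells) and the cKO mean 2.39 ± 2.04 (33 cells), well within the scatter of cells. Bhlhe40, the repressor, ran from 0 through 0.19 to 6.32 in control and from 0 through 0.93 to 6.73 in cKO. Its mean was 1.60 ± 2.09 in control and 2.60 ± 2.62 in cKO, a difference of 0.99 pooled, 1.28 in batch 1 and 0.30 in batch 2. Its relative Bhlhe41 was more abundant, with a mean of 6.63 in control, and differed by 0.92 (1.03 and 0.66 in the batches). Kdm3b, the relative of Kdm3a, differed by 0.11.

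Ankrd37, the member whose promoter held the most motifs, had the smallest pooled difference, though not the smallest in either batch (Higd1a in batch 1, Mxi1 in batch 2). It ran from 0 through 0.38 to 6.50 in control and from 0 through 0.68 to 8.20 in cKO, with means of 2.43 ± 2.79 and 2.96 ± 3.26. The pooled difference of 0.53 was made of 0.57 in batch 1 and 0.63 in batch 2, close to each other. The highest control cell was exceeded by 16 of the 67 cKO cells. In cKO CM-like cells the order of mean levels was Higd1a (8.15), Ero1l (6.65), Ndufa4l2 (3.53), Kdm3a (3.20), Ankrd37 (2.96), Ndrg1 (2.89), Bhlhe40 (2.60), Mxi1 (2.34), Car9 (1.41) and Ddit4 (1.16). Each step between neighbours was within the SDs of both genes over cells, apart from the step of 1.50 below Higd1a, which exceeded its SD of 0.97 but not the 1.70 of Ero1l, and the step of 3.12 from Ero1l to Ndufa4l2, which exceeded 1.70 but not 3.28.

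**Figure D2:**
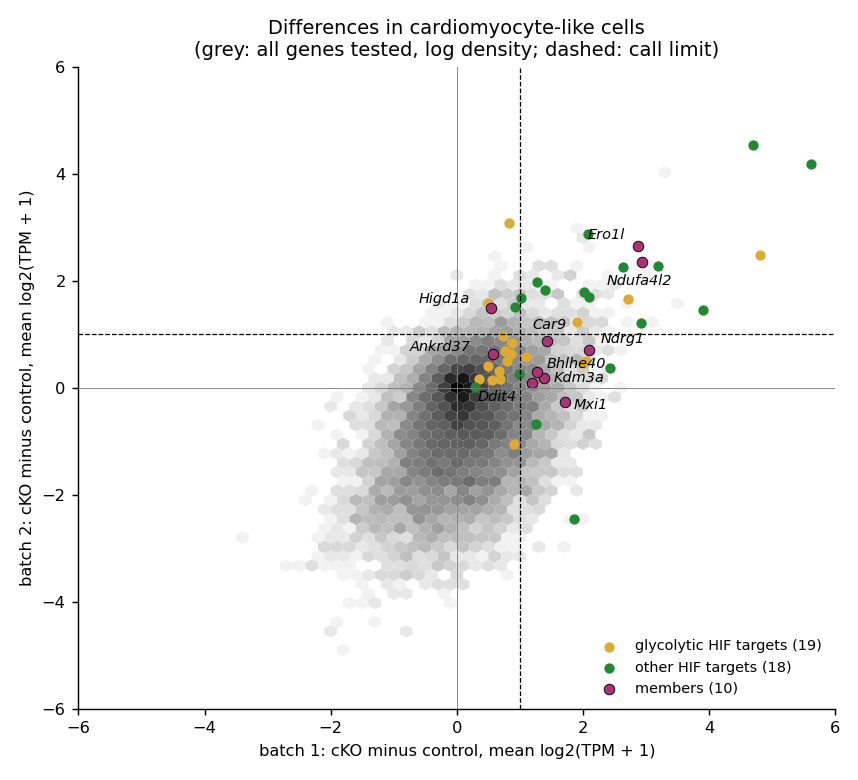
The difference between cKO and control in CM-like cells, as mean log2(TPM + 1), is plotted for batch 1 (horizontal) against batch 2 (vertical), for all 15083 genes tested (grey), the 10 members, 19 glycolytic and 18 other HIF targets. Ero1l and Ndufa4l2 lie beyond the dashed limit of 1 on both axes, 6 members pass it on the horizontal axis only, and Higd1a passes it on the vertical axis only.

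A difference of mean log2 levels can come from more cells with the transcript or from more transcript in those cells, and the members were therefore split this way. Detected means a TPM of 1 or more, and the 95% intervals of shares are exact (Clopper-Pearson) and take in counting error alone. The share of detecting CM-like cells was higher in cKO for Ndufa4l2, at 58.2% (45.5 to 70.2%) against 23.1% (8.97 to 43.6%) in control. It was 62.7% (50.01 to 74.2%) against 30.8% (14.3 to 51.8%) for Ndrg1, 61.2% (48.5 to 72.9%) against 30.8% for Mxi1, and 98.5% (92.0 to 99.96%) against 76.9% (56.4 to 91.0%) for Ero1l. Intervals of the genotypes lay apart for 2 of 10 members, Ero1l and Ndufa4l2, against 0.935% of all genes tested, and overlapped for Ndrg1 and Mxi1. With any TPM above 0 counted, they lay apart for Ndufa4l2 alone, against 0.497% of genes, because Ero1l was then present in every CM-like cell of both genotypes. In batch 2 Ero1l was at 100% in both genotypes at a TPM of at least 1 as well. Shares for Ddit4 were 35.8% and 11.5%, for Car9 28.4% and 7.69%, for Kdm3a 71.6% and 53.8%, and for Bhlhe40 49.3% and 38.5%, all with overlapping intervals. Ankrd37 was detected in 46.3% of cKO and 46.2% of control cells, and Higd1a in every cell.

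These shares differed between the batches. The median gain in the share of detecting cells over the 10 members was 29.6 percentage points in batch 1 and -0.57 in batch 2, against 2.61 and -11.0 over all genes tested. In batch 2 the members with a higher share in cKO were Ankrd37, Car9 and Ndufa4l2, and how many of all genes had such a gain was not counted. Control cells of batch 2 had higher levels of many genes. Their mean log2(TPM + 1) exceeded that of batch 1 by a median of 0.98 over the members and 0.50 over all genes tested, against 0.10 and -0.02 in cKO cells. The median number of members detected per cell was 3 (range 1 to 7) in the 18 control cells of batch 1 and 6 (5 to 8) in the 8 of batch 2, while in cKO it was 6 in both batches (ranges 1 to 10 and 3 to 9). The same control cells also had more detected genes in batch 2, as given above, and the part of depth in this step was not tested. Among detecting cells the mean level was higher in cKO for 8 of 9 members in batch 1, against 54.9% of genes, and for 9 of 9 in batch 2, against 60.3%, where Ddit4 and Car9 respectively had no detecting control cell to compare. The median difference among detecting cells was 0.97 in batch 1 and 1.25 in batch 2, against 0.09 and 0.23 over all genes. Several of these values rest on 2 or 3 detecting control cells. The difference was largest for Ndufa4l2 (2.25 and 3.08, from 3 detecting control cells in each batch). For Ero1l it was 1.45 and 2.64, from 12 and 8 detecting control cells, and for Mxi1 it was -0.20 and 0.02. Ankrd37, equal between genotypes in its share, differed by 1.04 and 0.80 in its detecting cells (9 and 3 control cells).

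**Figure D3:**
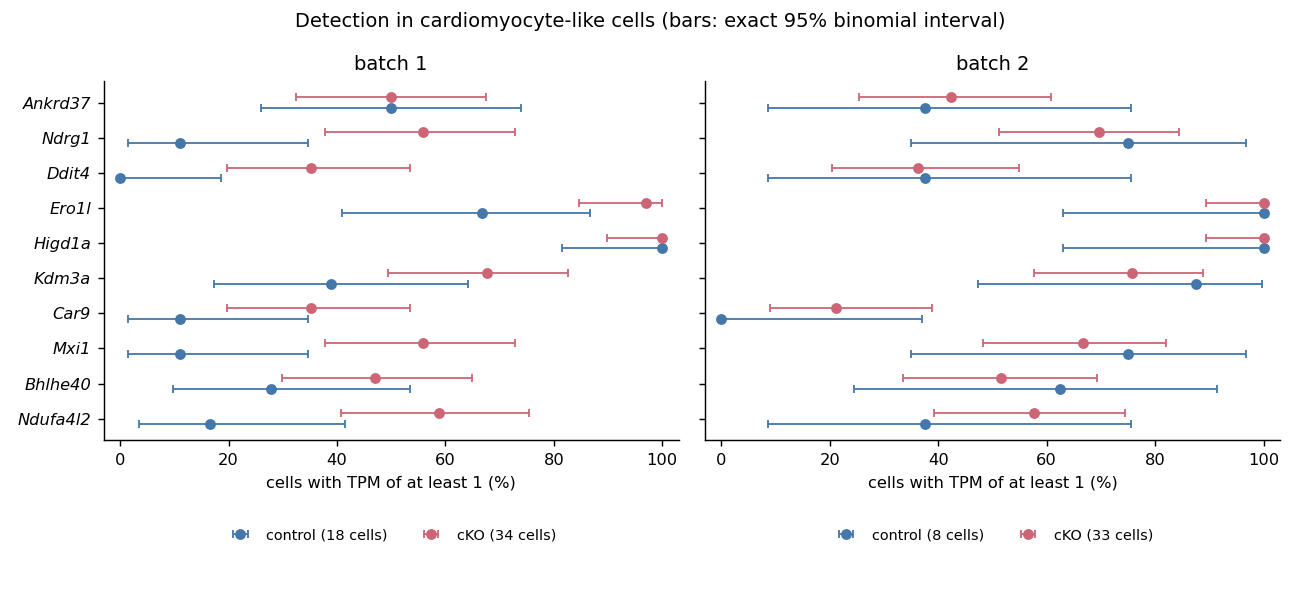
The horizontal axis gives the percentage of CM-like cells with a TPM of at least 1, with exact 95% binomial intervals, for 18 control and 34 cKO cells of batch 1 and 8 control and 33 cKO cells of batch 2. The median gain of the cKO share over the members was 29.6 percentage points in batch 1 and -0.57 in batch 2, against 2.61 and -11.0 over all genes tested. Intervals are wide for the 8 control cells.

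Over all cells, the difference also reflects which cell types each genotype contributed. CM-like cells made up 67 of 69 cKO cells (97.1%, interval 89.9 to 99.6%) and 26 of 74 control cells (35.1%, interval 24.4 to 47.1%). The study states that cKO cardiomyocytes came apart more readily than control ones, so that more of them were picked as single cells. These are therefore shares of picked cells and not of the heart. Across all cells, 4 of 10 members were called higher, namely Ndrg1, Ero1l, Higd1a and Ndufa4l2, against 3.89% of 16659 genes. The median difference was 1.20. Higd1a moved the most on this wider comparison, from 0.86 to 1.97, and in control it was higher in CM-like cells than in the other classes.

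In control hearts the members differed between cell classes, as described here with cells of 1 sample. The other classes were 21 endothelial-like, 13 epicardial-like and 5 erythroid-like cells, and 9 cells in a cluster led by mitochondrial transcripts that was left unnamed. The epicardial-like cluster raised 6 of 6 epicardial markers and also 9 of 14 mesenchymal ones. Bhlhe40 was at 5.44 ± 1.95 in epicardial-like cells, detected in 12 of 13, against 1.60 ± 2.09 in CM-like and 1.13 ± 1.94 in endothelial-like cells. Its level in control epicardial-like cells was above that in cKO CM-like cells (2.60 ± 2.62). Mxi1 (2.28 ± 2.23), Ndrg1 (1.97 ± 2.23) and Car9 (1.09 ± 1.71) also had their highest control class means in epicardial-like cells, each within 1 SD of the CM-like values. Higd1a was at 7.29 ± 0.88 in CM-like, 6.38 ± 1.10 in erythroid-like, 6.37 ± 0.86 in epicardial-like and 5.75 ± 1.53 in endothelial-like cells. Ero1l was highest in CM-like cells at 3.73 ± 2.20, followed by 3.57 ± 2.20 in erythroid-like, 3.21 ± 2.26 in endothelial-like and 2.35 ± 2.14 in epicardial-like cells, and neighbours in this order did not differ beyond their SD. Kdm3a was highest in endothelial-like cells (2.77 ± 2.29). Ndufa4l2 stayed under a mean of 1 in every control class, between 0 and 0.80, and the mean of 3.53 in cKO CM-like cells was above that of each. Ankrd37 was highest in CM-like cells (2.43 ± 2.79) and Ddit4 in the 5 erythroid-like cells (0.96 ± 1.39), again within 1 SD of the other classes named here. The 2 cKO cells of the unnamed cluster had Higd1a at a mean of 3.47 and the other 9 members undetected.

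**Figure D4:**
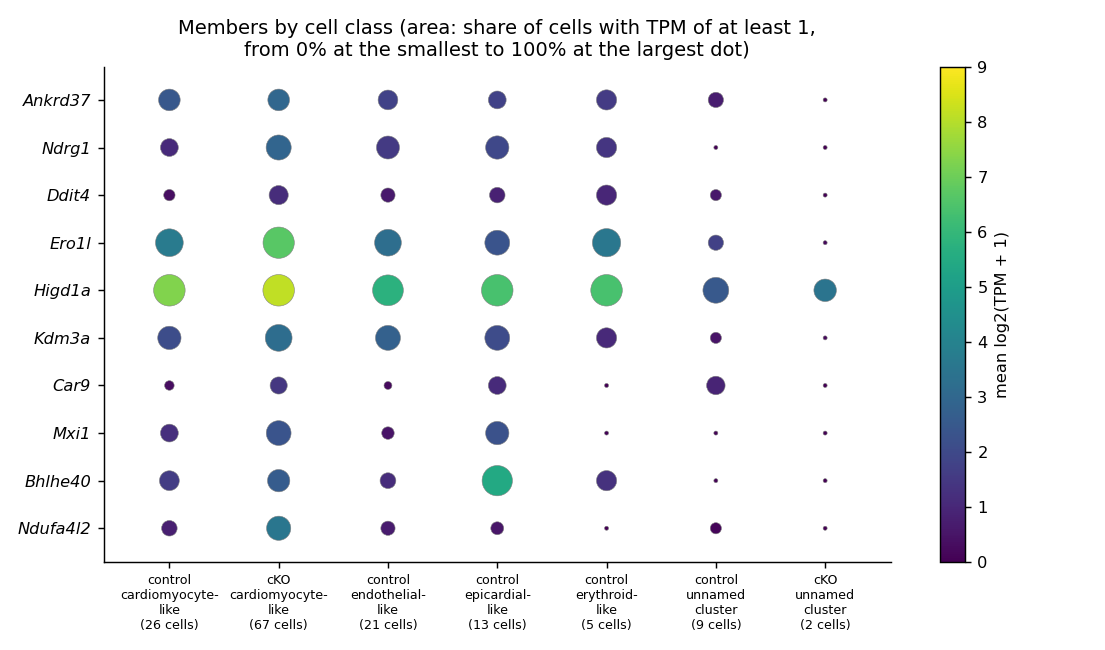
Colour gives the mean log2(TPM + 1) and dot area the percentage of cells with a TPM of at least 1, for each member (rows) in each cell class and genotype (columns). Bhlhe40 stands out in control epicardial-like cells at 5.44, and Ero1l and Ndufa4l2 in cKO CM-like cells at 6.65 and 3.53.

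The other genes of the pathway in CM-like cells are given by counts from lists, beside 1.96% of all genes called higher and 3.94% called lower. Like the members, the lists were chosen with earlier results of these data known, so the counts only describe them. Of 18 further HIF targets tested, 12 were called higher and 0 lower, with a median difference of 1.84 (2.05 in batch 1 and 1.69 in batch 2). Those with the largest differences were Cox4i2, a subunit isoform of cytochrome c oxidase (5.31), P4ha2, a collagen prolyl hydroxylase (4.85), Adm, a vasodilator peptide (3.45), Hilpda, a lipid droplet protein (2.78), Plod2, a collagen lysyl hydroxylase (2.59), and Loxl2, a lysyl oxidase (2.43). Of 19 glycolytic targets tested, 3 were called higher, the glucose transporter Slc2a3 (4.10), the phosphofructokinase Pfkp (2.47) and the hexokinase Hk2 (1.63), and 0 lower. The glycolytic median was 0.87 (0.83 and 0.58), and 18 of the 19 were above 0 in both batches, so most were past 0 but short of the limit. The members, at 1.09 (1.41 and 0.66), lay between these lists. In the HIF machinery, 2 of 9 genes were called higher, the prolyl hydroxylases Egln1 (2.40) and Egln3 (1.97), and 0 lower. Transcripts of Hif1a differed by -0.59 (0.05 and -1.64 in the batches), of Arnt by 0.39 (0.85 and -0.52) and of Epas1 by -0.15.

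Calls in lists for neighbouring processes are to be read against 1.96% of all genes called higher and 3.94% called lower. The lists are short, so 1 call is already a larger share than these. Of 14 paralogs of the members tested, 1 was called higher and 1 lower, the Ndrg genes given above, with a median of -0.12. Of 12 integrated stress response genes 1 was called higher, the lipoprotein receptor Vldlr (3.44), and the median was 0.76 pooled but 1.34 in batch 1 and -0.66 in batch 2. Of 12 genes for folding in the endoplasmic reticulum, where Ero1l acts, 0 were called in either direction and the median was 0.06. Their differences ran from -1.07 for Sdf2l1 to 1.12 for P4hb, with 3 genes above 0 and 3 below 0 in both batches. Of 8 p53 targets, a group that shares Ddit4 as a known target, 1 was called lower, Ccng1 (-1.83), and 0 higher. Of 9 immediate early and heat shock genes 2 were called lower, Junb (-1.67) and Ier2 (-1.28). In the MYC and MAX network, to which Mxi1 belongs, 1 of 6 was called lower, Mycn (-1.96), and the median was -0.23.

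Within cKO CM-like cells the members varied together to a weak degree. Pearson's r was computed between log2(TPM + 1) values of 67 cells after each batch was centred on its mean, which gives a description across cells of 1 sample that share capture and depth. The 45 pairs ran from -0.08 to 0.41 with a median of 0.20, against a median of 0.039 over all pairs of the genes tested. An r of at least 0.2 was found in 23 of the 45 pairs (51.1%), against 11.6% of all pairs. The highest were Ndrg1 with Bhlhe40 (0.41), Ankrd37 with Ero1l (0.41), Ero1l with Ndufa4l2 (0.40) and Ndrg1 with Ndufa4l2 (0.37). The 4 pairs below 0 were Ddit4 with Ndufa4l2 (-0.08), Kdm3a (-0.06) and Higd1a (-0.01), and Ankrd37 with Car9 (-0.06), and the median r with the other members was lowest for Kdm3a (0.11). The members' mean z-score had an r of 0.43 with the number of detected genes, and after that number was regressed out the median of the pairs was 0.17, against 0.003 for all pairs. The median was 0.25 in batch 1 and 0.11 in batch 2, and Ndrg1 with Bhlhe40 went from 0.64 to 0.17. In the 26 control CM-like cells the median was -0.02, against 0.039 for all pairs there. A weak correlation between transcripts that are at 0 in many cells is given here as a value only.

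**Figure D5:**
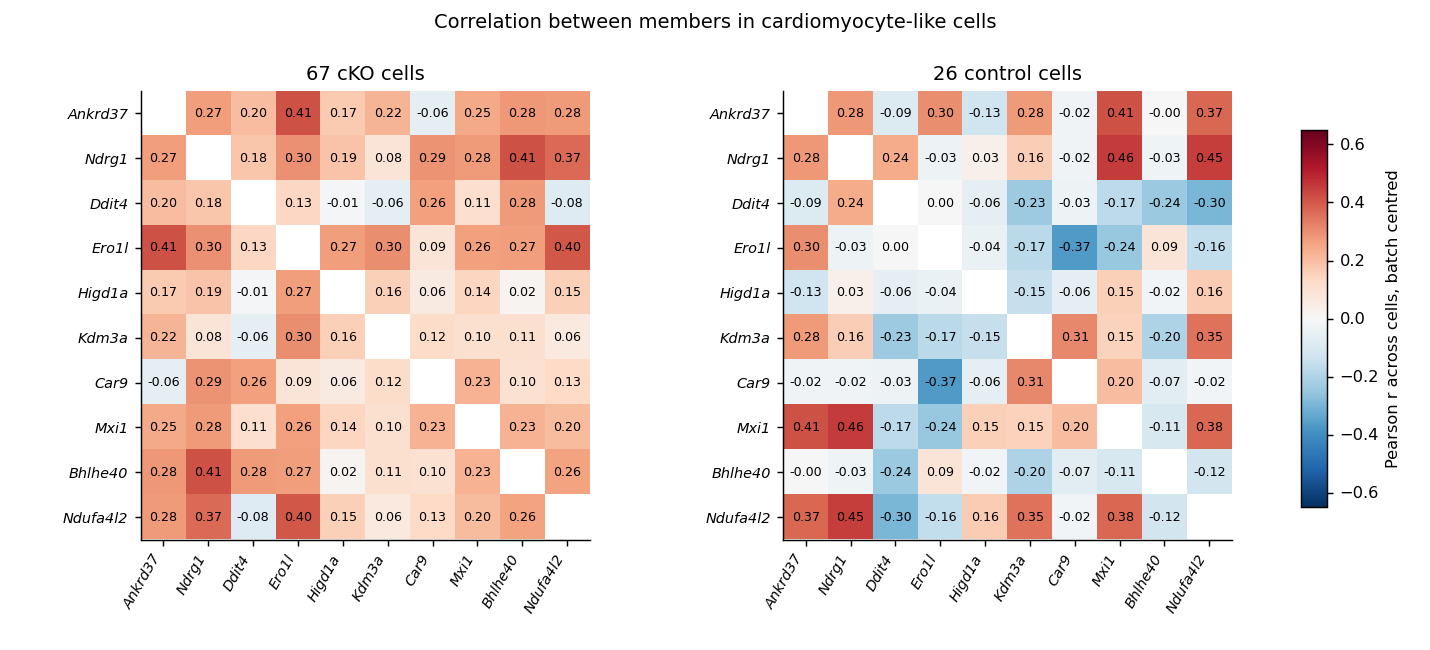
Squares give Pearson's r between pairs of members across CM-like cells, batch centred, for 67 cKO cells (left) and 26 control cells (right). In cKO 41 of 45 pairs were above 0, against 60.9% of all pairs of genes tested, with the highest values around Ero1l and Ndrg1. In control 19 of 45 were, against 56.8% of all pairs.

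The members differed in which list they tracked across cKO CM-like cells. Ero1l had an r of 0.71 with the mean z-score of the further HIF targets, 0.61 with the glycolytic targets and 0.62 with the folding genes of the endoplasmic reticulum. With detected genes regressed out these were 0.63, 0.48 and 0.48. Ero1l also had 0.49 with the paralogs, 0.46 with the p53 targets and 0.46 with the HIF machinery. With detected genes regressed out these were 0.32, 0.34 and 0.27. Its r with Hif1a was 0.51, given without that step. The other members had an r with Hif1a between -0.03 (Car9) and 0.16 (Ankrd37). Higd1a had 0.43 with the glycolytic and 0.34 with the further targets (0.47 and 0.32 with detected genes regressed out). Ddit4 had its highest r, 0.43, with the integrated stress response list, and 0.24 with the further HIF targets (0.45 and 0.29). Kdm3a had 0.43 with both the folding list and the immediate early list and 0.18 with the further HIF targets, and these were 0.27, 0.32 and near 0 with detected genes regressed out. With the HIF machinery Kdm3a had -0.05, and -0.38 with detected genes regressed out. Car9 had 0.09 with the further and 0.07 with the glycolytic targets (near 0 and -0.06). These values rest on many cells at 0, and low values such as those of Car9 carry little information at its detection in 19 of 67 cells.

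Among the 5754 other genes with a TPM of at least 1 in at least 50% of cKO CM-like cells, those most like the members' mean z-score were Gpx3, an extracellular glutathione peroxidase (r of 0.61), Sdc4, a syndecan (0.60), Gipr, a peptide hormone receptor (0.56), Fam162a, a mitochondrial HIF target (0.56), and Crip2 (0.54). They were followed by the glucose transporter Slc2a1 (0.54), P4hb, the protein disulfide isomerase of collagen hydroxylases (0.54), Ftl1, a ferritin light chain (0.54), H2-Ab1, an antigen-presenting chain (0.53), and Tpd52 (0.53). The median over the 5754 genes was 0.14. All 10 had a lower r in batch 2, from 0.25 (Crip2) to 0.48 (Sdc4), than in batch 1, from 0.55 (Ftl1) to 0.75 (Gipr). With detected genes regressed out, 6 of these 10 stayed among the 10 most alike. Of the 10, 4 were also called higher in cKO, against 4.29% of the 5754 genes, namely H2-Ab1 (3.70), Gipr (2.21), Tpd52 (1.76) and Fam162a (1.27), while Crip2 (-0.01) and Ftl1 (-0.05) differed little.

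Exonic bases are shared by 7 of the 10 members with another gene on the opposite strand in GENCODE M21, and Smart-seq2 does not keep the strand. Ndufa4l2 (chr10:127514967-127517154) shares 32 of its 1095 exonic bases with Shmt2, whose own difference was 1.24 (0.81 and 1.52 in the batches). Ankrd37 (chr8:45996902-46005707) shares 57 of 1539 bases with Ufsp2, which differed by 0.98, and 349 with Lrp2bp, whose mean was 0.08 in control cells and 0.37 in cKO cells. Higd1a (chr9:121848563-121858362) shares 683 of 3040 bases with Gm47112, not analysed here. Overlaps of Ndrg1 (chr15:66929318-66969640), Car9 (chr4:43506966-43513729), Mxi1 (chr19:53310518-53375810) and Bhlhe40 (chr6:108660629-108666925) were with predicted or non-coding genes at a mean of at most 0.72 in either genotype. Ero1l (chr14:45283087-45318771), Kdm3a (chr6:71588972-71632990) and Ddit4 (chr10:59949669-59951834) share none. The part of the overlapping genes in the members' TPM was not tested.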

How the data were processed

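The authors deposited TPM values per gene and cell, which per the labels and the study's methods came from Salmon with mm10. The version of Salmon and the annotation release were not given in the sources used here. TPM is scaled to a fixed total (996133 to 999999 per cell), so depth is unknown and abundant transcripts lower the others. The 143 columns were matched by title to 143 of 170 labelled samples, 27 were not analysed here, and 0 columns were left unused. The authors kept cells by mapping rate and reporter expression. Each sample is 1 hand-picked cell, no doublet caller was run, and cells were not treated as replicates.

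Values were transformed to log2(TPM + 1). The pseudocount of 1 understates changes of low genes. Cells were clustered (Ward linkage, 5 clusters) on z-scored markers. Clusters were named after the class for which the highest proportion of markers was raised by at least 1 (minimum 3) and detected in most cells, unless their top 10 genes held more markers of another class. These names were rebuilt and are not the study's annotation. Genes with TPM above 0 in more than 10 CM-like cells were compared by the difference of means, pooled and per batch, and called at 1 or more in both batches. Shares have exact Clopper-Pearson 95% intervals, and a share of 0 was taken to allow 3 cells of the total. Gene loci came from GENCODE M21 (GRCm38, the same assembly as mm10) and promoters from RefSeq. The named genes were all 10 members, the called genes of each other list (up to 6, by pooled difference), Dgcr8 and Xist, and the 10 genes most correlated with the members. Ddx3y, Hspa5, Sdf2l1, relatives of the members, overlapping genes and uncalled genes of the HIF machinery were added after values were seen. The members and all lists were chosen with earlier results of these data known. Scripts were tested on simulated data. Python 3.11.15, numpy 2.4.6, pandas 2.3.3 and scipy 1.17.1 were used.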

Additional observations from a re-analysis of the deposited data

How the results depend on the processing

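No paired analysis was possible because no result comes from a test, and a replicate number marks a single cell. Ero1l and Ndufa4l2 were called higher under all 13 alternatives tried for the count. Some of these could hardly change the outcome, since 6 clusters returned the same 93 CM-like cells and the other filters on low values kept the same differences. The count of members called higher, 2 as reported against 1.96% of all genes, was 6 with the log2 ratio of mean TPM, against 6.63%. It was 4 with 4 clusters, against 5.39%, and 4 over all cells, against 3.89%. It was also 4, against 2.57%, when each batch was measured from the median of all genes, an alternative chosen after seeing the data. All genes called higher and lower numbered 295 and 595 as reported. They were 564 and 1130 with a pseudocount of 0.1, 109 and 151 with 10, 1000 and 375 with the ratio of means, 825 and 155 with 4 clusters, 408 and 221 with CM-like cells taken by marker score, and 648 and 391 over all cells, so higher calls went from 33.1% of calls to between 29.5% and 84.2%. The members' median difference of 1.09 was 1.72 with a pseudocount of 0.1 and 0.54 with 10. Under the 13 other alternatives it lay between 0.66 (batch 2 alone) and 1.45, and a linear fit with batch and detected genes, also chosen after seeing the data, gave 1.23. Of 140 recomputed differences of single members, which include those with 6 clusters that equal the main values, 137 were above 0. Mxi1 was below 0 in batch 2 alone (-0.27). The median gain in detection of 21.1 percentage points was 17.3 with any TPM above 0, and the median r between members lay between 0.11 and 0.25. Only 8 control CM-like cells were in batch 2, which limits every statement on that batch.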
